A study of Mus musculus with 2 samples.

Results

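Mitochondrial ribosomal protein genes are the nuclear genes whose symbols begin with Mrpl (large subunit) or Mrps (small subunit). They were taken as every listed symbol of that form followed by a digit, without pseudogene symbols and with a mean of at least 1 FPKM over both libraries. FPKM divides the fragments of a gene by transcript length and library depth, so levels can be compared between genes. The rule gave 77 genes, 48 of the large and 29 of the small subunit, out of 12429 genes with that mean and 22350 listed symbols. All 77 had a mean of at least 5 FPKM, so the threshold left none of them out. RNA came from colon epithelial cells of C57BL/6 mice given 2.5% dextran sulfate sodium (DSS), which injures the colon lining, for 3 days. One library was from Pkm2-/- mice, which lack the M2 form of pyruvate kinase, and 1 was from wild type mice that had the same DSS course. How the allele was made, the age of the animals and how many of them entered a library are not stated in the labels.

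Mitochondria keep their own ribosome, which makes the few respiratory chain proteins that mitochondrial DNA encodes. Its 2 ribosomal RNAs come from mitochondrial DNA, whereas every protein subunit is encoded in the nucleus, made in the cytosol and imported. Some subunits have counterparts in all ribosomes or in bacterial ones, and others occur in mitochondria alone. Structural names carry this as u (universal), b (bacterial) or m (mitochondrial), so that the product of Mrpl55 is bL31m.

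Each genotype had 1 library, so that no difference below has a test or a replicate check, and each describes these 2 libraries. The worth of 1 fragment, read from the lowest values, put the Pkm2-/- library at about 21.4 M fragments and the wild type library at about 18.8 M. A member rested on 278 to 2944 implied fragments in the Pkm2-/- library and 218 to 2037 in the wild type library. Pkm, the targeted gene, stood at 86.2 FPKM in the Pkm2-/- library and 281 FPKM in the wild type library, a value that covers both of its isoforms. All 12 markers of colon epithelium were listed, with a summed level of 8332 FPKM in the Pkm2-/- library and 7333 FPKM in the wild type library. Markers of other cell types were low but unequal. The 10 T cell markers summed to 92.6 FPKM in the Pkm2-/- library and 22.9 FPKM in the wild type library, the 10 macrophage and dendritic cell markers to 26.1 and 12.4 FPKM in the same order of libraries, and the 5 erythrocyte markers to 1.91 and 24.5 FPKM.

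The members were expressed at moderate and uneven levels. In the Pkm2-/- library their levels ran from 7.10 to 83.2 FPKM with a median of 27.4, and in the wild type library from 5.40 to 78.8 FPKM with a median of 23.3. The highest level was 11.7 times the lowest in the Pkm2-/- library and 14.6 times in the wild type library. Mrpl12, whose product bL12m forms the stalk that binds translation factors, had the highest mean level, at 83.2 FPKM in the Pkm2-/- library and 67.2 FPKM in the wild type library. Mrpl52 followed with 66.2 FPKM in the Pkm2-/- library and 78.8 FPKM in the wild type library, then Mrpl42 with 63.2 and 61.5 FPKM. Mrpl24 and Mrpl30 came next, and Mrps21, at 49.4 FPKM in the Pkm2-/- library and 48.9 FPKM in the wild type library, was the highest of the small subunit.

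The lowest levels belonged to Mrpl19, with 7.10 FPKM in the Pkm2-/- library and 5.40 FPKM in the wild type library, and to Mrpl1, with 7.60 and 7.34 FPKM. Mrpl11, Mrpl47, Mrpl35 and Mrpl57 were the others with a mean under 10 FPKM. The order of the genes was close in both libraries, with Pearson's r of 0.967 and Spearman's rho of 0.952 for log2(FPKM + 1) over the 77 genes, which are not independent replicates. Over all genes tested r was 0.963. Together the members made up 0.406% of all FPKM in the Pkm2-/- library and 0.346% in the wild type library.

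**Figure D1:**
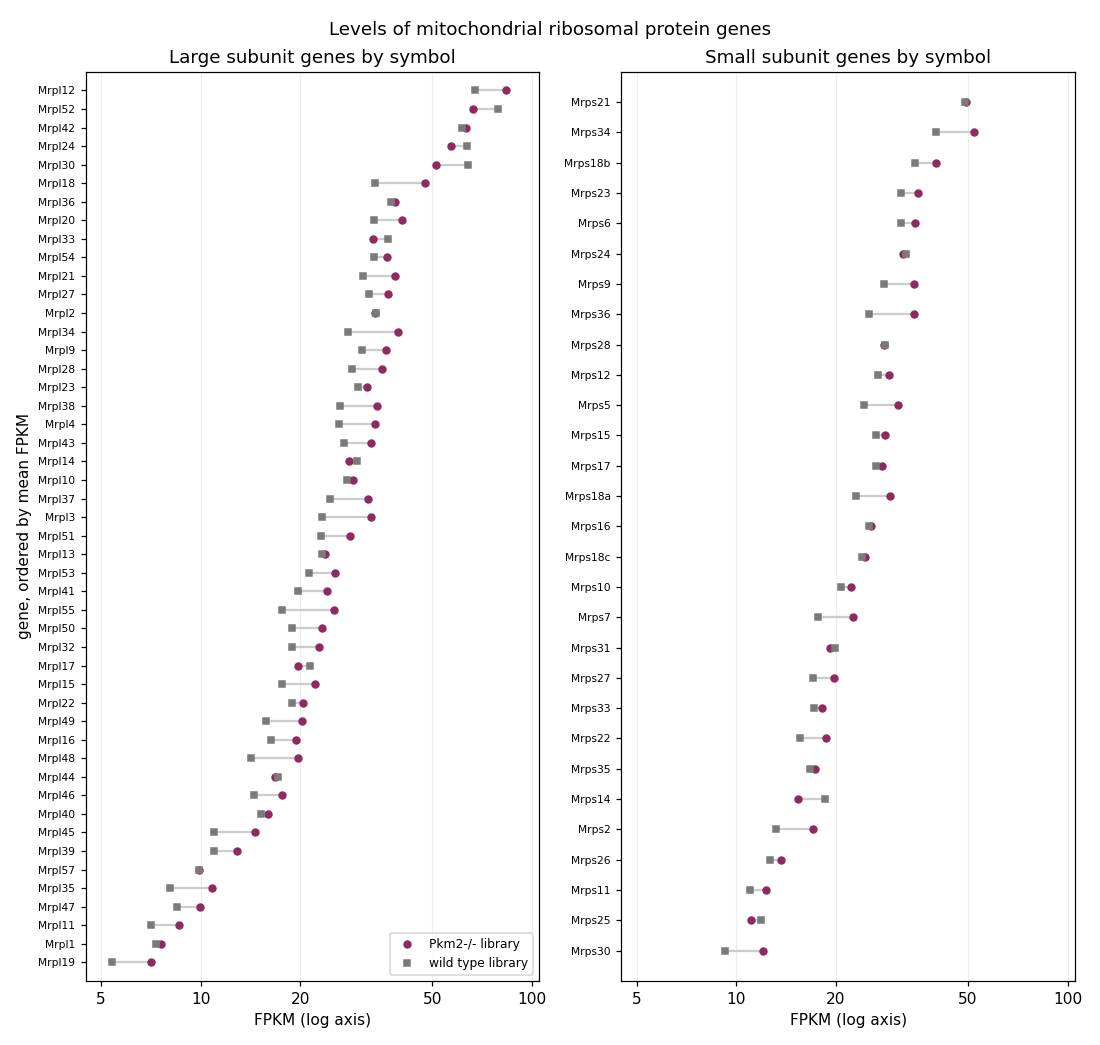
Level of each gene in the Pkm2-/- library (circles) and the wild type library (squares), in FPKM on a log axis, with large subunit genes on the left and small subunit genes on the right, by symbol. Most circles lie right of their squares by a small distance, and Mrpl52, Mrpl30, Mrpl24 and Mrps14 are among those on the other side.

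Most members were slightly higher in the Pkm2-/- library. Of 77 genes, 64 had a log2((Pkm2-/- FPKM + 1)/(wild type FPKM + 1)) above 0, against 58.8% of all genes tested, and 13 had one below 0. The median of this log2 ratio was 0.20 for the members and 0.062 for all genes tested. No member was as much as 1.5-fold apart in either direction, a size that 4.46% of all genes reached upward and 5.29% downward (1.42% and 1.9% at 2-fold). A smaller step of 0.32 on this log2 scale, 25% higher or 20% lower, is used below, and genes past it are named as past the 25% step upward or downward. Upward, 18 members were past it, against 15.7% of all genes, and downward none, against 12.2%. The remaining 59 genes, 76.6% of the members, lay within the step, as did 72.1% of all genes. The members' summed level was 2168 FPKM in the Pkm2-/- library and 1947 FPKM in the wild type library, a ratio of 1.11. The epithelial markers were higher as well, 10 of 12 with a ratio above 0 and a median log2 ratio of 0.21, so that more RNA per cell and more epithelial cells in the preparation cannot be told apart. The part of cell makeup in the members' difference was not tested.

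The split of 18 members past the step upward and 0 downward depended on scaling. With both libraries set to equal medians it was 6 upward and 3 downward, beside 10.5% and 16.1% of all genes, and with equal upper quartiles 7 upward and 1 downward, beside 11.5% and 15.2%. With equal sums outside the mitochondrial chromosome it was 27 upward and 0 downward, beside 20.4% and 10.5%. The share of members past the step upward was thus below that of all genes under the first 2 scalings and above it under the last.

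Counting intervals show how much of each difference exceeds the sampling of fragments, and they do not cover differences between animals. The 95% interval of the fold (Clopper-Pearson on implied fragments) lay above 1 for 42 members and below 1 for 5, and held 1 for 30. Over all genes tested 36.1% had an interval above 1 and 21.7% had one below 1. These counts hold for the deposited scaling. Another scaling would shift every interval, and the counts were not repeated under the scalings above. The 5 members below were Mrpl30, Mrps14, Mrpl52, Mrpl24 and Mrpl17.

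**Figure D2:**
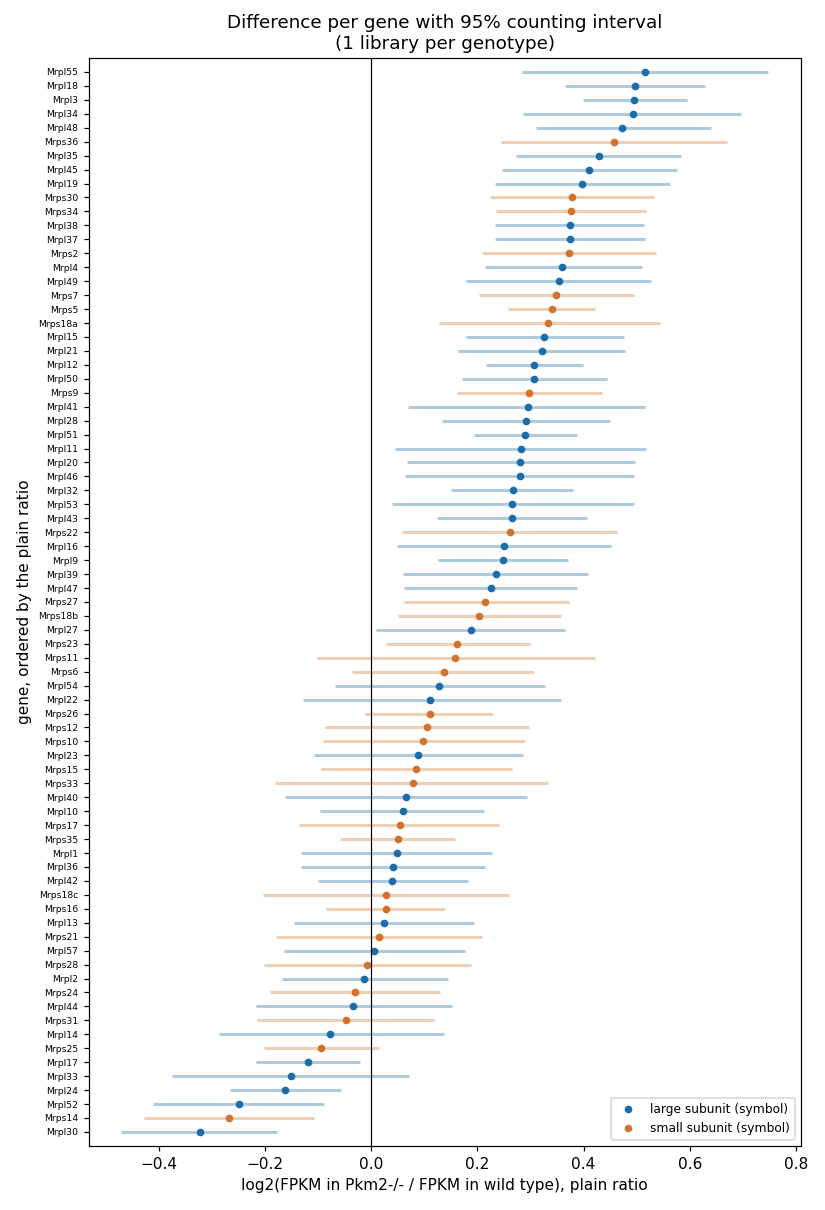
Log2 of the plain FPKM ratio, Pkm2-/- over wild type, for each of the 77 genes (points), with its 95% counting interval (bars), coloured by subunit. The genes run from Mrpl55 at the top, 1.43-fold higher, to Mrpl30 at the bottom, at 0.799 of the wild type level, and both colours occur along the whole range.

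The highest ratio was that of Mrpl55, which encodes bL31m of the central protuberance (ENSMUSG00000036860, chromosome 11, 59202486 to 59206134 on GRCm38). It stood at 25.2 FPKM in the Pkm2-/- library and 17.6 FPKM in the wild type library, 1.43-fold higher with a counting interval of 1.22 to 1.68. Even so, 804 of the 12429 genes tested had a higher log2 ratio than Mrpl55. Mrpl18, which encodes uL18m, had 47.5 FPKM in the Pkm2-/- library and 33.6 FPKM in the wild type library, 1.41-fold higher (interval 1.29 to 1.55). Mrpl34 had 39.3 FPKM in the Pkm2-/- library and 27.9 FPKM in the wild type library, and Mrpl3 had 32.7 and 23.2 FPKM. Mrpl48, Mrps36, Mrpl35 and Mrpl45 completed the 8 highest, with folds of 1.39, 1.37, 1.35 and 1.33. Of these 8 genes 7 have large subunit symbols.

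The lowest ratio was that of Mrpl30, which encodes uL30m (ENSMUSG00000026087, chromosome 1, 37890477 to 37898535 on GRCm38). It stood at 51.1 FPKM in the Pkm2-/- library and 64.0 FPKM in the wild type library, a ratio of 0.799 with a counting interval of 0.721 to 0.884. Mrps14, for uS14m in the head of the small subunit, had 15.3 FPKM in the Pkm2-/- library and 18.5 FPKM in the wild type library, a ratio of 0.831 (interval 0.743 to 0.928). Mrpl52 had a ratio of 0.841 and Mrpl24 one of 0.893, so that 3 of the 5 most abundant members were among the 4 with the lowest ratios. Mrpl33, Mrpl17, Mrps25 and Mrpl14 followed, with ratios of 0.900, 0.920, 0.936 and 0.948. Across the 77 genes the log2 ratio had an r of -0.16 with log2 mean FPKM and 0.18 with log2 transcript length, given as a description of genes that share the same libraries.

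The large and small subunit were then compared. In the deposited values both had about the same share of genes above 0. These were 40 of 48 for the large and 24 of 29 for the small subunit, against 58.8% of all genes. With equal medians the counts were 33 and 17, beside 48.1% of all genes, and with equal upper quartiles 33 and 19, beside 50.6%. With equal sums outside the mitochondrial chromosome they were 42 and 27, beside 64.5%. In the deposited values the median log2 ratio was 0.25 for the large and 0.10 for the small subunit, a difference of 0.15. The means were closer, at 0.19 and 0.14, and the summed levels had nearly the same ratio. The large subunit summed to 1415 FPKM in the Pkm2-/- library and 1270 FPKM in the wild type library, 1.11-fold, and the small subunit to 753 FPKM in the Pkm2-/- library and 677 FPKM in the wild type library, also 1.11-fold. Past the 25% step upward were 12 large subunit genes and 6 small subunit genes, which is 25% and 20.7% of each, against 15.7% of all genes. None was past it downward in either, against 12.2% of all genes, and both shares change with the scaling as given above. Between the quartiles the values ran from 0.04 to 0.32 in the large and from 0.03 to 0.29 in the small subunit, so the subunits overlapped over most of their range and differed mainly near the middle. This difference had no test, since genes of 1 library pair are not replicates.

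**Figure D3:**
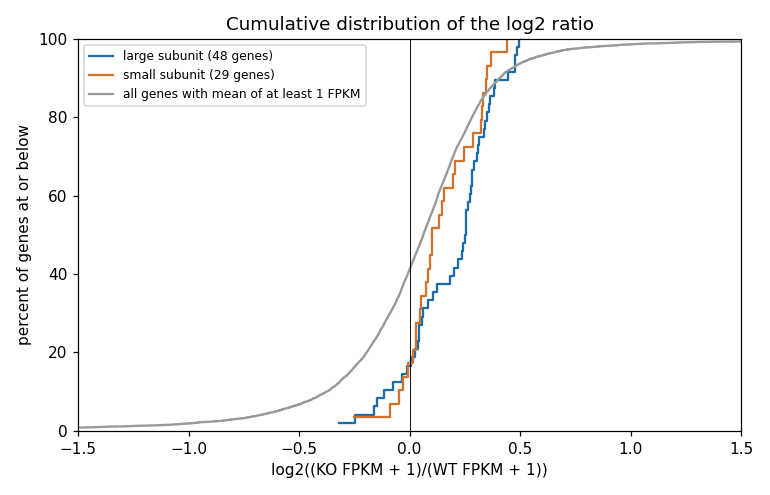
Percent of genes (y axis) with a log2((KO FPKM + 1)/(WT FPKM + 1)) at or below the value on the x axis, for the large subunit, the small subunit and all genes tested. Both subunit curves start right of the curve of all genes, and the large subunit curve lies right of the small subunit curve between about the median values of 0.10 and 0.25.

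Symbols do not always give the place of a protein. Mrps30 and Mrps18a carry small subunit symbols, yet their products mL65 and mL66 sit in the large subunit, and the product of Mrps36 is now known as a part of the 2-oxoglutarate dehydrogenase complex. Mrps30 had 12.02 FPKM in the Pkm2-/- library and 9.25 FPKM in the wild type library, Mrps18a 29.02 and 23.03 FPKM, and Mrps36 34.5 and 25.1 FPKM. All 3 had log2 ratios above 0.3, in the upper part of the small subunit list. Placed by structure, the large subunit held 50 of the members and the small subunit 26, with medians of 0.25 and 0.097, and 13 large and 4 small subunit genes were past the 25% step upward. The 4 are 15.4% of the small subunit by structure, about the share of all genes (15.7%). Mrps18a, Mrps18b and Mrps18c are relatives of 1 bacterial gene for protein S18. Mrps18b (mS40) had 39.9 FPKM in the Pkm2-/- library and 34.7 FPKM in the wild type library, and Mrps18c, whose product bS18m takes the bacterial position, had 24.5 and 24.0 FPKM, so that their folds of 1.26, 1.15 and 1.02 were unequal in the order a, b and c.

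By origin, the 27 members with a universal counterpart had a median log2 ratio of 0.10, the 18 with a bacterial one 0.25 and the 31 found in mitochondria alone 0.22. Within the large subunit the universal members were at 0.095, the bacterial ones at 0.28 and the mitochondrial ones at 0.27. Within the small subunit the order differed, at 0.10 for 11 universal, 0.027 for 4 bacterial and 0.10 for 11 mitochondrial members.

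Genes for the central protuberance of the large subunit, a crest built around a small RNA, had the highest median of the structural groups. All 7 lay above 0, against 58.8% of all genes tested, and 5 of them were past the 25% step upward, against 15.7%. The median was 0.41. That median is the log2 ratio of Ict1, a subunit outside the symbol pattern that is also among the 5 past the step. Beside Mrpl55 and Mrpl18, Mrpl48 had 19.7 FPKM in the Pkm2-/- library and 14.2 FPKM in the wild type library, and Mrpl38 had 34.1 and 26.3 FPKM. Ict1, the older symbol under which the files list Mrpl58, encodes a peptidyl-tRNA hydrolase built into the ribosome (mL62). It falls outside the symbol pattern and had 25.6 FPKM in the Pkm2-/- library and 19.1 FPKM in the wild type library. Mrpl46 and Mrpl40 were lower in the group, with log2 ratios of 0.26 and 0.061.

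The other groups of the large subunit were less uniform. Their counts above 0 stand beside 58.8% of all genes tested. Of 6 genes around the peptidyl transferase centre, where peptide bonds form, and the tunnel wall, 5 were above 0, with a median of 0.21. Mrpl3 (uL3m) led them with a fold of 1.41, Mrpl4 had 33.6 FPKM in the Pkm2-/- library and 26.2 FPKM in the wild type library, and Mrpl2 was even at 33.6 and 33.9 FPKM. All 4 stalk genes were above 0, with a median of 0.15. Mrpl12 was 1.24-fold higher (interval 1.16 to 1.32), while its stalk base partner Mrpl10 had 28.8 FPKM in the Pkm2-/- library and 27.7 FPKM in the wild type library. Of 7 genes around the polypeptide exit, 4 were above 0 and 3 below, with a median of 0.085. There Mrpl45, whose product faces the inner membrane, had 14.6 FPKM in the Pkm2-/- library and 10.97 FPKM in the wild type library, whereas Mrpl24 had 56.8 and 63.5 FPKM and Mrpl17 19.6 and 21.4 FPKM.

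In the small subunit, genes for messenger RNA entry and decoding had the highest group median. Counts above 0 in these groups stand beside 58.8% of all genes tested. Of the 5 entry and decoding genes 4 were above 0, with a median of 0.29. That median is the log2 ratio of Ptcd3, a subunit outside the symbol pattern that is described below. Mrps2 (uS2m) had 17.0 FPKM in the Pkm2-/- library and 13.1 FPKM in the wild type library, and Mrps5 (uS5m) had 30.7 and 24.2 FPKM. Mrps12, for the decoding centre protein uS12m, had 28.8 FPKM in the Pkm2-/- library and 26.8 FPKM in the wild type library, and Mrps24 (uS3m) was at 31.8 and 32.5 FPKM. Of 8 head genes, with Dap3 from outside the symbol pattern among them, 6 were above 0, with a median of 0.084. Mrps7 had 22.4 FPKM in the Pkm2-/- library and 17.6 FPKM in the wild type library, and Mrps14 was the lowest of the group as given above. The 4 platform genes were all above 0 but none exceeded a log2 ratio of 0.15, with a median of 0.080. Outside these groups Mrps34 was past the 25% step upward, at 52.1 FPKM in the Pkm2-/- library and 40.1 FPKM in the wild type library. Exons of other genes cover 77.8% of its exonic bases, so fragments of Mapk8ip3 or Nme3 could be counted in it.

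**Figure D4:**
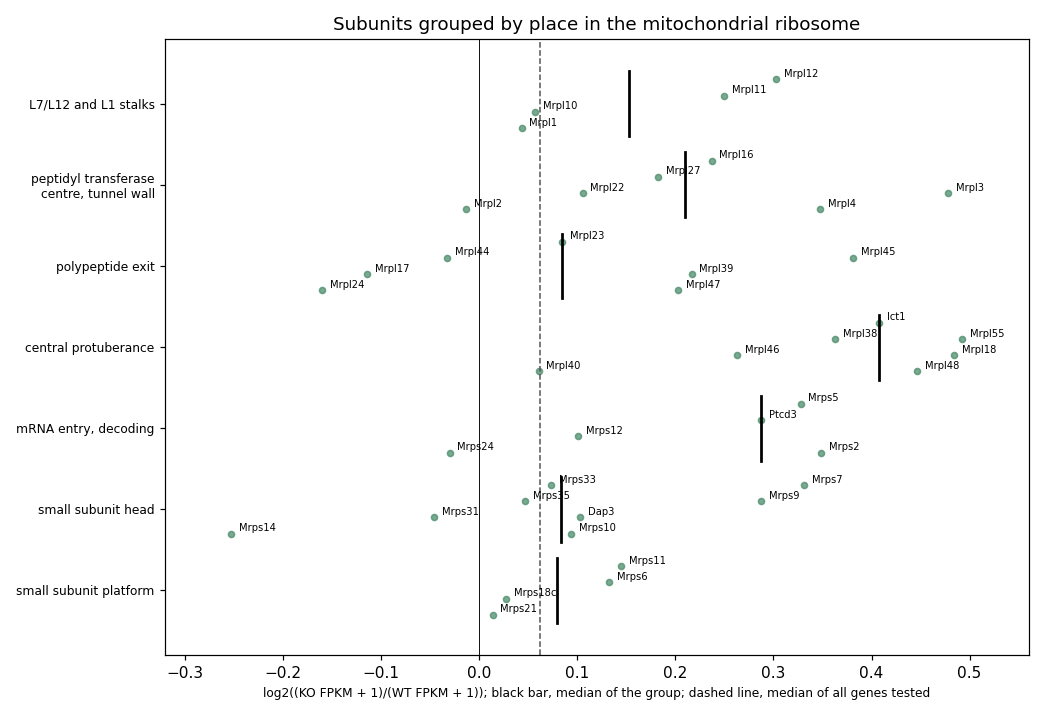
Log2((KO FPKM + 1)/(WT FPKM + 1)) of subunit genes grouped by the place of their product in the ribosome, with the group median (black bar) and the median of all genes tested (dashed line, 0.062). The central protuberance genes reach 0.49 and have the highest group median, and the polypeptide exit and head groups spread over both sides of 0.

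Most subunits with other symbols also had higher values in the Pkm2-/- library. Of 6 such genes 5 had log2 ratios above 0, against 58.8% of all genes tested, with a median of 0.15. Ptcd3, a pentatricopeptide repeat protein at the messenger RNA entry (mS39), had 29.05 FPKM in the Pkm2-/- library and 23.6 FPKM in the wild type library. Dap3, the GTP-binding mS29, had 34.0 and 31.6 FPKM, Chchd1 21.9 and 19.8 FPKM, and Gadd45gip1 9.14 and 8.05 FPKM in the same order of libraries. Aurkaip1 (mS38) was the exception, at 46.5 FPKM in the Pkm2-/- library and 49.6 FPKM in the wild type library.

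The promoters of the members were read because NRF1, the ETS factor GABP and YY1 are known to act on many nuclear genes for mitochondrial proteins. RefSeq windows of 250 bases before to 50 after the start (GRCm38.p6) were available for 68 of the 77 genes. The ETS core CCGGAAG occurred on either strand in 25 of 68 genes, 36.8%, against 21.04% of the genes tested that had a window and 9.93% of all genes with one. The NRF1 core GCATGCGC occurred in 8, 11.8%, against 6.19% and 3.05%, and the YY1 motif AAGATGGCG in 8, 11.8%, against 3.85% and 1.64%. The Sp1 box GGGCGG occurred in 34 of 68 members, fewer than the 68.7% of the genes tested and more than the 38.2% of all genes. CCAAT occurred in 39.7% of members, against 43.1% of the genes tested and 41.1% of all genes. TATAAA occurred in 7.35% of members, against 8.75% of the genes tested and 15.7% of all genes. A match is a match of letters and not a bound site.

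Members with the ETS core had a median log2 ratio of 0.18 and those without 0.22, and members with the NRF1 core had 0.15 against 0.20 without. With and without the YY1 motif the medians were 0.17 and 0.20, and for the Sp1 box 0.12 and 0.23. The order was the other way for CCAAT, at 0.25 with and 0.18 without, and for TATAAA, at 0.24 and 0.20. NRF1 cores lay in the windows of 7 of 42 large subunit genes and 1 of 26 small subunit genes, and ETS cores in those of 14 and 11. The 250 bases before the start are shown for the members with the highest, the second highest and the lowest ratio and 2 members that carry the NRF1 core, with ETS, NRF1 and YY1 letters on either strand in capitals. The 50 bases after the start, which the counts above include, are not shown. In the bases shown, the palindromic run in Mrpl32 holds the NRF1 core on both strands, and Mrpl22 has an ETS and an NRF1 core within the last 53 bases. There Mrpl18 has an ETS core only near the far end, and both Mrpl55 and Mrpl30, at opposite ends of the ratios, have none of the 3.
Mrpl55 (chr11:59202236-59202485, plus strand): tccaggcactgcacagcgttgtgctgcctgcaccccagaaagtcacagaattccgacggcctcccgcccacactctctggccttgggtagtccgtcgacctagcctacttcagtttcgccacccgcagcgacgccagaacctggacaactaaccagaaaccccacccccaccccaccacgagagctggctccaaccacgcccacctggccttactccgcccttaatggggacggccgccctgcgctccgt
Mrpl18 (chr17:12916092-12916341, minus strand): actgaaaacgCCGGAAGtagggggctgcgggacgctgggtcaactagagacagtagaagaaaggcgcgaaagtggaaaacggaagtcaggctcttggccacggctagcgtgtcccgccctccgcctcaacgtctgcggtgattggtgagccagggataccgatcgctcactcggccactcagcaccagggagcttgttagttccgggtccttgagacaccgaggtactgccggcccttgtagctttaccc
Mrpl30 (chr1:37890227-37890476, plus strand): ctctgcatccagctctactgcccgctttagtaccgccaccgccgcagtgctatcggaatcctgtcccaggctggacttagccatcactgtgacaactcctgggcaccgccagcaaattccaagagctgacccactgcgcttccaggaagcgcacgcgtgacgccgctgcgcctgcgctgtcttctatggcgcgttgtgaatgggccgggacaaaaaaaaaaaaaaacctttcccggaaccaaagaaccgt
Mrpl22 (chr11:58171414-58171663, plus strand): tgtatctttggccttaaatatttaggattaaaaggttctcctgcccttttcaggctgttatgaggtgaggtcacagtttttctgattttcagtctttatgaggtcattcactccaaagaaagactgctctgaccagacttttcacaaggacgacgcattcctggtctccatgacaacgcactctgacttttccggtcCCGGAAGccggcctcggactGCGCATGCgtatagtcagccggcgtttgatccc
Mrpl32 (chr13:14613038-14613287, minus strand): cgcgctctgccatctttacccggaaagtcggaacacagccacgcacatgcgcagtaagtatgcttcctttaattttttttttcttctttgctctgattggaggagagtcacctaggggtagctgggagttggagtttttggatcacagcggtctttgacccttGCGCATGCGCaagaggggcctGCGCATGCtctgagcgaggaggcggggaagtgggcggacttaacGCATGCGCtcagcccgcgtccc

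Exons of another gene cover at least 10% of the exonic bases of 18 members, among them Mrpl53 with 88.0%, Mrps25 with 69.8%, Mrpl24 with 26.3% and Mrpl18 with 10.1%. In 16 members at least 10% of the 31-base words occur in a gene elsewhere, most of these processed pseudogenes. Values of these members are uncertain, since fragments could be split between the genes. The 47 members with neither had a median log2 ratio of 0.24, with 39 above 0, against 58.8% of all genes tested. The members lie scattered over the genome, with 10 on chromosome 11, 8 on chromosome 17 and 7 on chromosome 6 as the largest numbers.

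Many members share their start region with a neighbour on the other strand. By GENCODE M21, 26 of 77 members, 33.8%, had a divergent protein-coding gene whose start lay from 1000 bases before to 500 bases into the member, against 14.9% of the 11306 protein-coding genes tested. Of the neighbours that are not members themselves, 22 had a mean of at least 1 FPKM and 17 of these had a log2 ratio above 0, against 58.8% of all genes tested. Mrpl30 and its neighbour Mitd1, with starts 66 bases apart, were both lower in the Pkm2-/- library, and Mitd1 stood at 19.2 FPKM there and 35.3 FPKM in the wild type library. Mrps11 and Mrpl46 form a pair of their own, whose heads overlap by 412 bases. Mrps11 had 12.3 FPKM in the Pkm2-/- library and 11.02 FPKM in the wild type library, and Mrpl46 had 17.6 and 14.5 FPKM. Mrps12 pairs with Sars2, the mitochondrial seryl-tRNA synthetase gene, which had 7.83 FPKM in the Pkm2-/- library and 5.66 FPKM in the wild type library. The pair of Mrpl49 and Fau, a gene for a cytosolic ribosomal protein, lay on opposite sides of 0. Mrpl49 had 20.2 FPKM in the Pkm2-/- library and 15.8 FPKM in the wild type library, and Fau had 349 FPKM in the Pkm2-/- library and 388 FPKM in the wild type library. Where exons of a pair overlap, reads without strand cannot be assigned to 1 gene.

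The RNAs that the mitochondrial ribosome is built on and reads went the other way. The 12S ribosomal RNA mt-Rnr1, the core of the small subunit, stood at 845 FPKM in the Pkm2-/- library and 1907 FPKM in the wild type library, 2.26-fold lower. The 16S ribosomal RNA mt-Rnr2, the core of the large subunit, stood at 772 FPKM in the Pkm2-/- library and 1695 FPKM in the wild type library, 2.196-fold lower. At least 2-fold lower were 1.9% of all genes tested. Some other RNAs without a usual poly(A) tail were lower too. Rn7sk, a small nuclear RNA, stood at 1.06 FPKM in the Pkm2-/- library and 22.3 FPKM in the wild type library, and Rmrp, the RNA of an endoribonuclease, at 0.542 and 11.1 FPKM. AY036118, annotated as a long noncoding RNA, was at 37.2 FPKM in the Pkm2-/- library and 316 FPKM in the wild type library. These libraries were made from messenger RNA, and the part of carried-over RNA in the ribosomal RNA values was not tested. Of the 12 listed mitochondrial messenger RNAs 11 had log2 ratios below 0, with a median of -0.17, from mt-Nd1 with 6197 FPKM in the Pkm2-/- library and 8116 FPKM in the wild type library to mt-Nd2 with 3758 and 3677 FPKM.

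Other parts of mitochondrial translation were set beside the members. For each of these lists, the share above 0 to set beside it is the 58.8% of all genes tested. Translation factors had a median log2 ratio of 0.19, with 13 of 17 above 0. Past the 25% step were 5 upward and 1 downward, against 15.7% and 12.2% of all genes. Gfm1, an elongation factor, had 33.3 FPKM in the Pkm2-/- library and 23.7 FPKM in the wild type library, Tufm, another one, had 89.3 and 65.9 FPKM, and Mtfmt, which formylates the initiator transfer RNA, had 9.02 and 12.2 FPKM. The 20 genes for charging mitochondrial transfer RNAs were at 0.080 with 16 above 0. Among them Sars2 was highest, and Lars2 was lowest, at 59.9 FPKM in the Pkm2-/- library and 192 FPKM in the wild type library. The lower level of Lars2 went with those of the mitochondrial ribosomal RNAs, Rn7sk, Rmrp and AY036118, and the part of carried-over RNA in it was not tested. The 28 genes for ribosome assembly and ribosomal RNA modification were at 0.043, with 19 above 0, from Mettl15 with 4.46 FPKM in the Pkm2-/- library and 3.04 FPKM in the wild type library to Tfb1m with 3.14 and 3.48 FPKM. The 19 genes for mitochondrial transcription and RNA processing were at 0.15, with 11 above 0, which is 57.9% and about the share of all genes. Tfam, which packages mitochondrial DNA and takes part in its transcription, was highest. It had 24.4 FPKM in the Pkm2-/- library and 17.9 FPKM in the wild type library, and Mterf1b was lowest with 0.776 and 1.39 FPKM.

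Cytosolic ribosomal protein genes, including close relatives with such symbols, differed from the members in level and in spread. The 82 of them with a mean of at least 1 FPKM had a median of 390.2 FPKM in the Pkm2-/- library and 393 FPKM in the wild type library. Their log2 ratios had a median of 0.022 and an SD of 0.083 across genes, against 0.20 and 0.19 for the members, and none of them was past the 25% step in either direction. With medians of 27.4 FPKM in the Pkm2-/- library and 23.3 FPKM in the wild type library, the members rested on fewer fragments per kb. The part of counting error in their wider spread was not tested. The highest was Rps27l, with 84.5 FPKM in the Pkm2-/- library and 69.6 FPKM in the wild type library, and the lowest was Rpl30, with 176 and 208 FPKM.

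**Figure D5:**
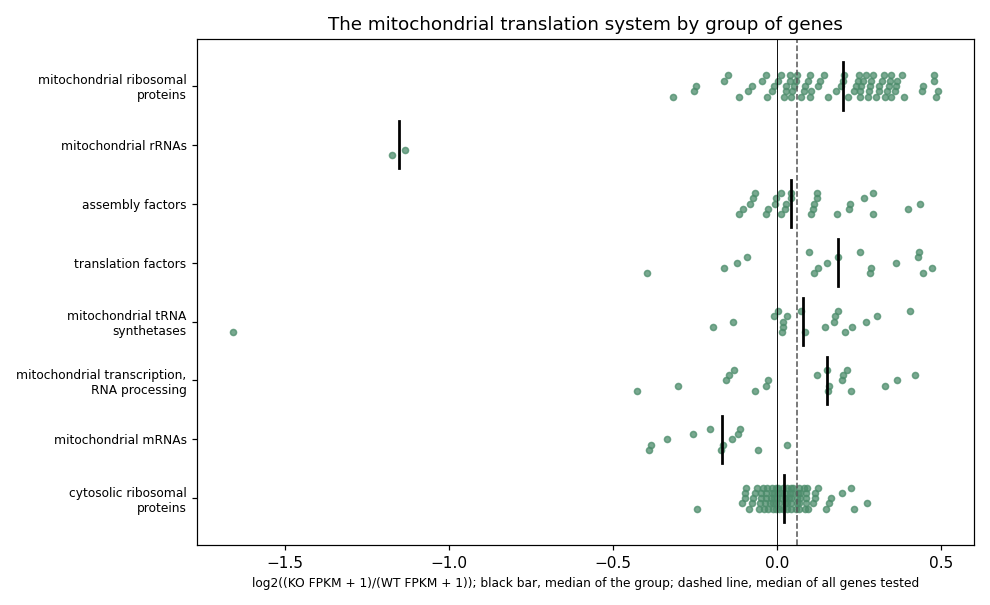
Log2((KO FPKM + 1)/(WT FPKM + 1)) of each gene in 8 groups, 7 of the mitochondrial translation system and 1 of cytosolic ribosomal proteins, with the group median (black bar) and the median of all genes tested (dashed line). The mitochondrial ribosomal RNAs lie near -1.15, the lone synthetase point near -1.66 is Lars2, and the cytosolic ribosomal proteins cluster around 0.022.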

How the data were processed

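RNA sequencing of 2 libraries was used, 1 from Pkm2-/- and 1 from wild type colon epithelial cells, both after 2.5% DSS for 3 days. The deposited values were taken as FPKM, since the files carry no header and the submitters' processing notes name Cufflinks 2.2.1 and Cuffdiff (1.3.0, 2.2.1) beside the aligners TopHat2 2.1.1 and Bowtie2 2.2.9. Those notes name the build mm8, but the loci match genes of GENCODE M21 on GRCm38, which was used for positions, lengths and overlaps (99.5% of symbols had an ID there). The libraries were built with a messenger RNA kit, per the labels' protocols, and strand use is not given in the sources used here.

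Values of 34 symbols with more than 1 ID were summed, and a gene absent from the list of a library counted as 0 there. The log2 ratio was log2((Pkm2-/- FPKM + 1)/(wild type FPKM + 1)), which understates differences of low genes, and a fold is the plain FPKM ratio. Depth came from the worth of 1 fragment in FPKM times kb, 0.0467 in the Pkm2-/- and 0.0533 in the wild type library. This was the most frequent value of single-transcript genes over 1500 bases within a preset low range. Counting intervals (95%) used the median length of basic coding transcripts and cover counting error only. Python 3.11.15, pandas 2.3.3 and scipy 1.17.1 were used, and the ratios, the worth of 1 fragment and the intervals were tested on simulated data. The simulation used the same transcript lengths, so it could not check the choice of lengths. Its changed genes differed more than any member did.

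No test was possible with these 2 libraries. The members and the gene lists were chosen with earlier results of these data known. Genes named are those with the 8 highest and 8 lowest ratios, the 6 highest and 6 lowest levels, members of the structural groups, misnamed subunits and the ends of the comparison lists. Rn7sk, Rmrp, AY036118, Tufm and the neighbours in shared start regions were chosen after their values were seen. Motifs were searched on both strands, and the YY1 motif was shortened by its last letter after a first search, which had found it in fewer members and fewer genes. Alternatives varied the pseudocount, the filter, the scaling, the average and the membership.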

Additional observations from a re-analysis of the deposited data

How the results depend on the processing

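The value of a list is its median log2 ratio, for all members 0.20, the large subunit 0.25, the small subunit 0.10 and all genes tested 0.062. With a pseudocount of 5 these were 0.17, 0.21, 0.089 and 0.042, and with 0.1 all genes were at 0.069. With equal library medians they were 0.12, 0.17, 0.023 and -0.013. This scaling multiplied the Pkm2-/- values by 0.943, which by its design brings the median of all genes close to 0, here slightly past it. With equal upper quartiles they were 0.14, 0.19, 0.041 and 0.0035, and with equal sums outside the mitochondrial chromosome 0.25, 0.30, 0.15 and 0.10. The mean over members gave 0.17, 0.19 and 0.14 for all members, the large and the small subunit. All genes were at 0.011 without the filter and at 0.080 with a mean of at least 5 FPKM, which changed nothing for the members, since all passed. The large minus small difference of medians, 0.15, lay between 0.12 and 0.16 under the alternatives run, and the difference of means was 0.049.

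The 18 members past the 25% step upward became 7 with a pseudocount of 5 (beside 8.11% of all genes), 6 with equal medians and 7 with equal upper quartiles, and the 0 downward became 1 with a pseudocount of 0.1 (beside 14.8%), 3 with equal medians and 1 with equal upper quartiles. With equal medians 14 members changed sign. Leaving out members that share at least 10% of exonic bases or of 31-base words with another gene, an alternative chosen after seeing the data, left 47 genes with a median of 0.24. No paired analysis was possible because each genotype has 1 library. Depth limits single members. Their intervals held 1 in 30 of 77 genes, a count that also reflects folds near 1. Mrps35, for example, had a fold of 1.03 on 1536 implied fragments in the Pkm2-/- library and 1300 in the wild type library.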

Other observations

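Regulators and quality control genes of mitochondria, which belong to no comparison above, were read from the same libraries. Of 10 measured biogenesis factors 8 had log2 ratios above 0, against 58.8% of all genes tested, with a median of 0.14. Myc had 21.3 FPKM in the Pkm2-/- library and 13.0 FPKM in the wild type library, and Ppargc1b, a coactivator of mitochondrial genes, had 13.4 and 8.31 FPKM. Its relative Ppargc1a had 9.07 FPKM in the Pkm2-/- library and 12.1 FPKM in the wild type library. Nrf1 had 11.96 FPKM in the Pkm2-/- library and 9.91 FPKM in the wild type library, Gabpa 11.7 and 11.1 FPKM, and Yy1 28.6 and 22.7 FPKM.

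Among 14 genes for mitochondrial proteases, chaperones and stress factors 10 were above 0, against 58.8% of all genes tested. The median was 0.087. Past the 25% step were 5 upward and 1 downward, against 15.7% and 12.2% of all genes tested. The chaperonin gene Hspe1 had the highest ratio, at 104 FPKM in the Pkm2-/- library against 62.9 FPKM in the wild type library. Its partner Hspd1 had 234 FPKM in the Pkm2-/- library against 146 FPKM in the wild type library. Ddit3, a stress transcription factor, was the lowest, at 9.63 FPKM in the Pkm2-/- library and 12.3 FPKM in the wild type library.

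The 4 pseudogene symbols of the family were low. Mrpl23-ps1 had 0.784 FPKM in the Pkm2-/- library and 0.590 FPKM in the wild type library, Mrps36-ps2 had 0.409 and 0.591 FPKM, and Mrpl48-ps 0.074 and 0.080 FPKM. Mrps36-ps1 was listed in the wild type library alone, at 0.151 FPKM. Of the 31-base words of Mrpl23, 53.0% occur in Mrpl23-ps1.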
